A study of Mus musculus with 16 samples.

Results

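The comparison described here is that of lung after titanium dioxide (TiO2) particles with lung after saline, both in pregnant mice. Its members were chosen by the labels alone: the 4 samples labelled pregnant with TiO2 and the 4 labelled pregnant with phosphate-buffered saline (PBS), 8 of the 16 samples of the study. All were female BALB/c mice, an inbred laboratory strain, at gestation day 14. The TiO2 group received 50 µg of respirable particles in 50 µL of PBS as 1 dose into the nose under light halothane, and the control group received the PBS vehicle in the same way. The particles had been baked against endotoxin, and whole-lung RNA was taken 19 h after dosing. The other 8 samples of the study were non-pregnant mice given the same particles or PBS, 4 of each. The labels do not say whether each sample came from 1 mouse, so p-values measure the spread between these samples. No genetic change was made in any group.

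TiO2 is widely used in lung toxicology as a poorly soluble dust of low toxicity, set against dusts or pollutants that inflame the lung. Inhaled particles are taken up mainly by alveolar macrophages, and an inflamed lung typically recruits neutrophils from blood through chemokines such as Cxcl1 and Cxcl2. Airway and alveolar epithelium adds secreted defence proteins, among them serum amyloid A3 and lipocalin 2, and the receptor that carries IgA into the airway. The stated question of the study was whether pregnancy alters the slight response that such particles usually give.

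All values below are log2(intensity + 16) of quantile-normalised array signals, and a difference is the mean of the 4 TiO2 arrays minus the mean of the 4 PBS arrays on that scale, with its standard error (SE) from limma. Probe set levels are compared between arrays and never between genes. Of the 12369 genes that passed a filter on dim signals, 0 were called at an adjusted p of 0.05 (0%), and the lowest adjusted p was 0.257. At an unadjusted p of 0.05 there were 795 genes (6.43%), of which 407 (3.29%) lay higher after TiO2 and 388 (3.14%) lower. The 4 TiO2 arrays lay wholly above the 4 PBS arrays for 253 genes (2.05%) and wholly below them for 269 (2.17%). All gene descriptions below therefore give values and not changes that passed the test.

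Among genes of smallest p whose groups did not overlap, those lower after TiO2 included many of neutrophils and other myeloid cells: S100a8 and S100a9, which form the calprotectin complex, Mmp8, the neutrophil collagenase, and Il1b, the inflammatory cytokine interleukin 1 beta. Those higher included the secreted defence genes Lcn2 and Pigr and the macrophage genes Mmp12 and C1qa, and Saa3 had the largest difference on that side. By size alone, squamous and muscle genes lay furthest below, with 1 TiO2 array far under the others, as described further on. The promoters of S100a8 and S100a9, neighbours on chromosome 3, and of Saa3 and Lcn2 are shown because the first pair lay lower and the second higher after TiO2 on the same 8 arrays. Each runs 5′ to 3′ along the gene's own strand over 300 bases around the RefSeq start, most of them before it (build GRCm38.p6), and capitals mark matches on either strand to TTGCNNAA, a form of the C/EBP motif.

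S100a8, chr3:90668821-90669120, plus strand: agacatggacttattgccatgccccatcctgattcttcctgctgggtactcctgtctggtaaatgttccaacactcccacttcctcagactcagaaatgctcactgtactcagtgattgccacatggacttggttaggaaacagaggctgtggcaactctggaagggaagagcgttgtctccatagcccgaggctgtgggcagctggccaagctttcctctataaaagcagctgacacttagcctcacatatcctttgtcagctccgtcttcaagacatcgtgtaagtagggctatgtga

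S100a9, chr3:90695672-90695971, minus strand: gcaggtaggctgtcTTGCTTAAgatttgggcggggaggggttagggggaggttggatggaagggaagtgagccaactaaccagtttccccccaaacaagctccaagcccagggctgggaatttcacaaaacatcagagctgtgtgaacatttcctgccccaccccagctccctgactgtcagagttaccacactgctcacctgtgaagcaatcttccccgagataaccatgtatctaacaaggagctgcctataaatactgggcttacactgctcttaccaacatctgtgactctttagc

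Saa3, chr7:46715627-46715926, minus strand: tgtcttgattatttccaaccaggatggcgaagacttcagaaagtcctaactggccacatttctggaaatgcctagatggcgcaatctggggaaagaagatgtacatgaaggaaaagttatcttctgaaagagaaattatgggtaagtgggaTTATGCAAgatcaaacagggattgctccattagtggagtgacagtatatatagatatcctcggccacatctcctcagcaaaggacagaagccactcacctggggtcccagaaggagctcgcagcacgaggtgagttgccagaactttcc

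Lcn2, chr2:32387690-32387989, minus strand: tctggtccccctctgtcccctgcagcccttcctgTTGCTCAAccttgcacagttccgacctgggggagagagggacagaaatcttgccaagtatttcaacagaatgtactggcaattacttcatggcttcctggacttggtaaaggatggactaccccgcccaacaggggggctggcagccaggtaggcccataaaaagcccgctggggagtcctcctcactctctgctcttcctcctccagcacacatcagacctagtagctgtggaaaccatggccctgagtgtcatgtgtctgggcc

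The windows of S100a9, Saa3 and Lcn2 each held 1 such match, and that of S100a8 held 0. Over all 32851 RefSeq promoter windows of 300 bases, 10.8% held TTGCNNAA. The searches for TTCNNNGAA, a STAT motif present in 8.3% of windows, and for an NF-kB motif, present in 1.63%, gave 0 matches in the 4 windows. A match is only a description of these letters, and it occurred on both sides: in S100a9 on the lower side and in Saa3 and Lcn2 on the higher.

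S100a8 was at 12.65, 12.55, 12.24 and 12.02 on the 4 PBS arrays and at 10.92, 11.28, 11.47 and 11.29 on the 4 TiO2 arrays. Every TiO2 array was below every PBS array, and the difference was -1.13 ± 0.21 (SE, n = 4 and 4; 95% interval -1.56 to -0.69), with an adjusted p of 0.257 by limma. S100a9 gave 12.44, 12.44, 11.99 and 11.75 after PBS and 10.95, 11.20, 11.17 and 11.06 after TiO2. Its groups did not overlap either, with a difference of -1.06 ± 0.21 (adjusted p = 0.267, limma). Within the PBS group, replicates 1 and 2 lay above replicates 3 and 4 for both genes.

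Mmp8 was at 8.44, 8.87, 7.81 and 7.36 after PBS and at 6.15, 6.49, 7.25 and 7.15 after TiO2, a difference of -1.36 ± 0.30. The groups were apart, but the nearest arrays, PBS replicate 4 and TiO2 replicate 3, were close. Stfa2l1, of the stefin family of cysteine protease inhibitors, was at 8.14, 7.91, 8.12 and 7.75 after PBS and at 6.65, 7.05, 7.43 and 7.02 after TiO2, a difference of -0.94 ± 0.19. The stefin A genes are near-identical copies, so its probe set may read more than 1 of them. Mmp9, gelatinase B, was also apart in all arrays, with a difference of -0.34 ± 0.13. Ngp and Camp, granule proteins made during neutrophil maturation, differed by -1.34 ± 0.38 and -0.69 ± 0.27, but their groups overlapped: Ngp reached 7.62 on TiO2 replicate 4, above the 7.38 of PBS replicate 3. Lyz2, lysozyme of macrophages and neutrophils, differed by -0.00 ± 0.07, and Ltf, lactoferrin of neutrophils and of airway glands, by 0.17 ± 0.21.

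Of the 22 listed neutrophil granule and cytosol genes, 14 were measured, and 11 of the 14 lay lower after TiO2, beside 50.1% of all genes tested. Their median difference was -0.27, beside -0.00 for all genes. Of the 14, 5 (S100a8, S100a9, Stfa2l1, Mmp8 and Mmp9) were apart on all arrays, beside 2.17% of all genes on the lower side. The mean of the list was 9.74, 9.69, 9.45 and 9.38 on the PBS arrays and 8.88, 9.03, 9.22 and 9.26 on the TiO2 arrays, so that the groups did not overlap. Elane, Mpo, Prtn3 and Ctsg, the granule proteases and peroxidase of early maturation, did not pass the filter.

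The neutrophil surface and signalling genes lay the same way. Of 23 listed genes 18 were measured, 16 of them lower and 2 higher, with a median of -0.33. Of the 18, 5 (Trem3, Clec4d, Clec4e, Selplg and Il1r2) were apart on all arrays, beside 2.17% of all genes on the lower side. Trem3, an activating myeloid receptor, was at 7.08, 7.0, 7.08 and 7.04 after PBS and at 6.55, 6.62, 6.44 and 6.37 after TiO2. That difference was -0.56 ± 0.10 (adjusted p = 0.257, limma), with little spread inside either group. Clec4d and Clec4e, C-type lectin receptors of myeloid cells, differed by -0.67 ± 0.17 and -0.63 ± 0.18. Il1r2, the decoy receptor for interleukin 1, differed by -0.62 ± 0.20, and Csf3r, the receptor for the neutrophil growth factor G-CSF, by -0.51 ± 0.18 with overlapping groups. In whole lung, fewer cells of a type and less RNA per cell cannot be told apart.

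Other myeloid genes were among the 12 with the smallest p on the lower side. Klra17, a Ly49 family receptor known from plasmacytoid and myeloid cells although it was listed with natural killer genes, was at 7.06, 7.21, 6.86 and 7.05 after PBS and at 6.28, 6.02, 6.66 and 6.00 after TiO2. Its difference was -0.80 ± 0.14 (adjusted p = 0.257, limma), and without TiO2 replicate 3 it was -0.95 with an adjusted p of 0.0347. Klra genes are close copies of each other, so this probe set may not be specific. Cd33, an inhibitory sialic acid receptor of myeloid cells, differed by -0.49 ± 0.10 and was apart.

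Monocyte genes lay lower as well: of 12 measured of 14 listed, 10 were lower and 2 higher, with a median of -0.23. Ifitm6, a membrane protein of the interferon-induced family that is abundant in monocytes, was at 8.84, 8.71, 8.19 and 8.11 after PBS and at 7.50, 7.69, 7.33 and 7.24 after TiO2, a difference of -1.02 ± 0.23. Its groups were apart, as were those of Ms4a4c, with a difference of -0.66 ± 0.21. Of the 12 only these 2 were apart, beside 2.17% of all genes on the lower side. Ccr2, the chemokine receptor of inflammatory monocytes, differed by -0.41 ± 0.23 with overlap. Cx3cr1, the receptor of patrolling monocytes, lay on the other side at 0.41 ± 0.20, also with overlap.

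The PBS side of these differences was itself high. In non-pregnant mice S100a8 averaged 10.9 ± 0.33 (SD, n = 4) after PBS and 10.6 ± 0.40 after TiO2, beside 12.4 ± 0.29 in the pregnant PBS group and 11.2 ± 0.23 in the pregnant TiO2 group. Pregnant mice after PBS exceeded non-pregnant mice after PBS by 1.46 ± 0.21 for S100a8 (adjusted p = 0.00241, limma), 1.65 ± 0.30 for Mmp8 (adjusted p = 0.0114) and 1.38 ± 0.14 for Il1b (adjusted p = 0.000762). That comparison shares the pregnant PBS arrays with the one described here, called 129 genes (1.04%), and is given only to place the levels.

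**Figure D1:**
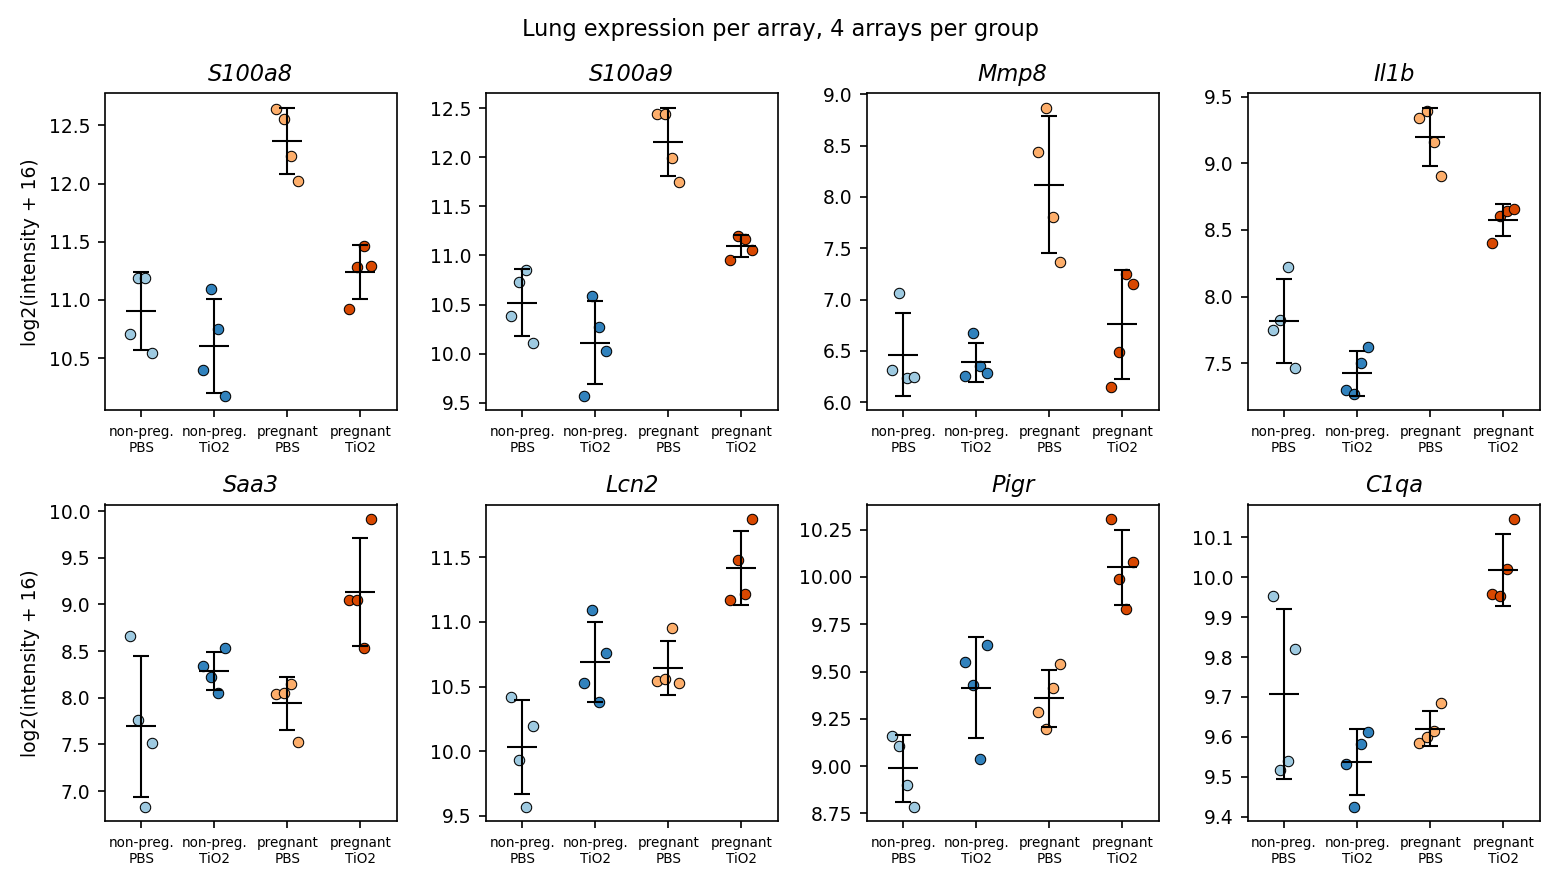
Log2(intensity + 16) of 8 genes on every array, by group, with the mean and SD of the 4 arrays as a bar. S100a8, S100a9, Mmp8 and Il1b were highest in pregnant PBS lung, and Saa3, Lcn2, Pigr and C1qa had all 4 pregnant TiO2 arrays above all 4 pregnant PBS arrays.

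Cytokines and chemokines did not share the direction of the neutrophil genes. Il1b was at 9.34, 9.39, 9.16 and 8.91 after PBS and at 8.40, 8.61, 8.65 and 8.66 after TiO2, apart, with a difference of -0.62 ± 0.14 (adjusted p = 0.373, limma). Il1a, the second interleukin 1, lay higher by 0.20 ± 0.11, and Il33, an alarm cytokine of the same family stored in epithelial and stromal nuclei, by 0.28 ± 0.12. Both were apart on all arrays: Il33 was at 9.61 to 9.72 after PBS and at 9.80 to 10.06 after TiO2. Over the 15 measured genes of the inflammatory cytokine list, 7 were higher and 8 lower, with a median of -0.04. Of the 15, 2 (Il1a and Il33) were apart on the higher and 1 (Il1b) on the lower side, beside 2.05% and 2.17% of all genes. Il6 and Tnf did not pass the filter.

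Of 27 listed chemokines 17 were measured, 13 of them higher and 4 lower, with a median of 0.13 beside 49.9% higher and -0.00 for all genes. The list mean was 8.54, 8.49, 8.48 and 8.44 after PBS and 8.62, 8.57, 8.58 and 8.72 after TiO2, so the groups did not overlap although the shift was small. Cxcl16, a membrane-bound chemokine and scavenger receptor of macrophages, was at 8.57, 8.48, 8.64 and 8.66 after PBS and 8.90, 8.99, 8.77 and 8.70 after TiO2. Its difference was 0.25 ± 0.08. It was the list's only member apart on all arrays, beside 2.05% of all genes on the higher side. Cxcl14 differed by 0.39 ± 0.15 and Cxcl10, an interferon-induced chemokine, by 0.39 ± 0.20, both with overlap.

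The neutrophil-attracting chemokines were dim or uneven. Cxcl1 differed by 0.13 ± 0.25 on the probe set that stood for it, and its other 2 probe sets gave 0.68 ± 0.28 and -0.08 ± 0.20, so the 3 disagree. Cxcl2 and Cxcl3 did not pass the filter. On the same scale, Cxcl2 was at 5.14, 5.60, 5.23 and 4.97 after PBS and at 5.43, 6.09, 5.78 and 6.21 after TiO2, with overlap. Cxcl3 was at 5.11, 4.90, 4.50 and 5.24 after PBS and at 5.49, 5.96, 5.67 and 5.51 after TiO2, which did not overlap. These low signals were not part of the fit over 12369 genes. Ccl2, Cxcl5 and Il6 were also below the filter, with differences of 0.15 ± 0.23, 0.07 ± 0.23 and 0.27 ± 0.18, all with overlap. Tnf, below the filter too, lay lower by -0.43 ± 0.15 and did not overlap. It was at 4.90 or above on the PBS arrays and at 4.73 or below on the TiO2 arrays.

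Secreted defence genes lay higher. Saa3, serum amyloid A3, an acute phase protein made in lung epithelium and macrophages, was at 8.04, 8.05, 8.15 and 7.53 after PBS and at 9.05, 9.04, 8.53 and 9.92 after TiO2. All TiO2 arrays were above all PBS arrays, and the difference of 1.19 ± 0.32 (adjusted p = 0.513, limma) was the largest on the higher side. Lcn2, lipocalin 2, which binds bacterial iron carriers, was at 10.54, 10.56, 10.95 and 10.53 after PBS and at 11.17, 11.48, 11.22 and 11.80 after TiO2. It too was apart, at 0.77 ± 0.19 (95% interval 0.36 to 1.18; adjusted p = 0.447, limma). Lcn2 is made by epithelium and by neutrophils, and it lay opposite to S100a8 and Mmp8.

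Pigr, the polymeric immunoglobulin receptor that carries IgA across the airway epithelium, had the smallest p on the higher side. It was at 9.29, 9.20, 9.42 and 9.54 after PBS and at 10.31, 9.99, 9.83 and 10.08 after TiO2. The groups were apart by 0.69 ± 0.14 (adjusted p = 0.267, limma). Its cargo genes were less separate: Jchain, the joining chain of IgA and IgM, differed by 0.26 ± 0.21, and Igha, the IgA heavy chain, by 0.33 ± 0.23. Igha was at 11.05 and 10.96 on PBS replicates 1 and 2 and at 12.05 and 12.11 on PBS replicates 3 and 4, while the TiO2 arrays lay between, at 11.81 to 11.92.

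Of the 29 listed acute phase and mucosal defence genes 20 were measured, 14 of them higher and 6 lower, with a median of 0.16. Of the 20, 3 (Saa3, Lcn2 and Pigr) were apart, beside 2.05% of all genes on the higher side. Itih4, a plasma protease inhibitor chain, differed by 0.42 ± 0.16, and Lbp, the lipopolysaccharide binding protein, by 0.22 ± 0.10, both with overlap. Reg3g, a bactericidal lectin of airway epithelium, differed by 0.80 ± 0.40, from 8.39 to 9.85 after PBS and from 9.05 to 10.80 after TiO2. Tff2, a trefoil peptide of mucus from the airway list, was at 6.30, 6.32, 6.50 and 6.54 after PBS and at 6.90, 6.82, 7.05 and 6.89 after TiO2, apart, with a difference of 0.50. Of the 19 measured genes of that list only Tff2 was apart, beside 2.05% of all genes on the higher side. Orm2, Saa1 and Saa2, acute phase genes of the liver, were below the filter.

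Complement genes lay higher. Of 20 listed genes 14 were measured, 11 of them higher and 3 lower, with a median of 0.24, and 4 were apart on all arrays, beside 2.05% of all genes. An unadjusted p under 0.05 was reached by 7 of the 14, all on the higher side, beside 3.29% of all genes. C1qa, a chain of the C1q recognition protein made by macrophages, was at 9.59, 9.60, 9.61 and 9.68 after PBS and at 9.96, 9.95, 10.02 and 10.15 after TiO2. It was apart by 0.40 ± 0.09 (adjusted p = 0.399, limma). C1qb and C1qc, the other chains of that protein, differed by 0.26 ± 0.11 and 0.22 ± 0.09 with overlap.

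The proteases that C1q activates lay the same way. C1ra was at 9.43, 9.27, 9.27 and 9.45 after PBS and at 9.64, 9.76, 9.65 and 9.78 after TiO2, a difference of 0.35 ± 0.09, and C1s1 differed by 0.26 ± 0.10. Cfb, factor B of the alternative pathway, was at 7.81, 7.75, 7.53 and 7.79 after PBS and at 8.27, 8.06, 8.20 and 8.51 after TiO2. Its difference was 0.54 ± 0.14, and C2, the corresponding protease of the classical pathway, differed by 0.29 ± 0.13. C1ra, Cfb and C2 were apart on all arrays. Serping1, the inhibitor of C1, and C5ar1, the receptor for C5a on neutrophils and macrophages, differed by -0.04 ± 0.09 and -0.07 ± 0.19.

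Macrophage genes lay higher more often than lower in the interstitial and alveolar macrophage lists. The particle uptake and lysosome list went the other way: of 19 measured genes 5 lay higher and 14 lower, with a median of -0.02. Of 12 measured interstitial macrophage genes 11 lay higher and 1 lower, with a median of 0.18, and the list mean was 8.64 to 8.73 after PBS and 8.73 to 8.97 after TiO2, with no overlap before rounding. The 3 C1q chains named above are among the 12. Cd14, the lipopolysaccharide co-receptor, was at 8.93, 8.85, 8.66 and 8.50 after PBS and at 8.97, 9.01, 9.16 and 9.37 after TiO2, a difference of 0.39 ± 0.16. Alveolar macrophage genes had a median of 0.07, with 8 of 13 higher, and that median was -0.00 without TiO2 replicate 2. Marco, the scavenger receptor for unopsonised particles, differed by 0.01 ± 0.38, and Mrc1, the mannose receptor, by -0.04 ± 0.09.

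Some enzymes of macrophages lay clearly on the higher side. Mmp12, macrophage elastase, was at 6.30, 6.47, 6.16 and 6.55 after PBS and at 6.89, 7.15, 6.78 and 6.84 after TiO2. The groups were apart by 0.55 ± 0.11 (adjusted p = 0.327, limma). Ctsk, the collagen-degrading cathepsin K, was at 8.45, 8.20, 8.28 and 8.35 after PBS and at 8.70, 9.00, 8.51 and 8.82 after TiO2, apart by 0.44 ± 0.11. Retnla, a secreted marker of alternative activation, was at 11.34 to 11.54 after PBS and at 11.66 to 12.06 after TiO2, a difference of 0.41 ± 0.20. Arg1, another such marker, differed by -0.46 ± 0.35 because TiO2 replicate 2 was at 4.70 while the other 3 were at 6.32 to 6.73. Of 10 measured genes of that list 6 were higher and 4 lower.

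**Figure D2:**
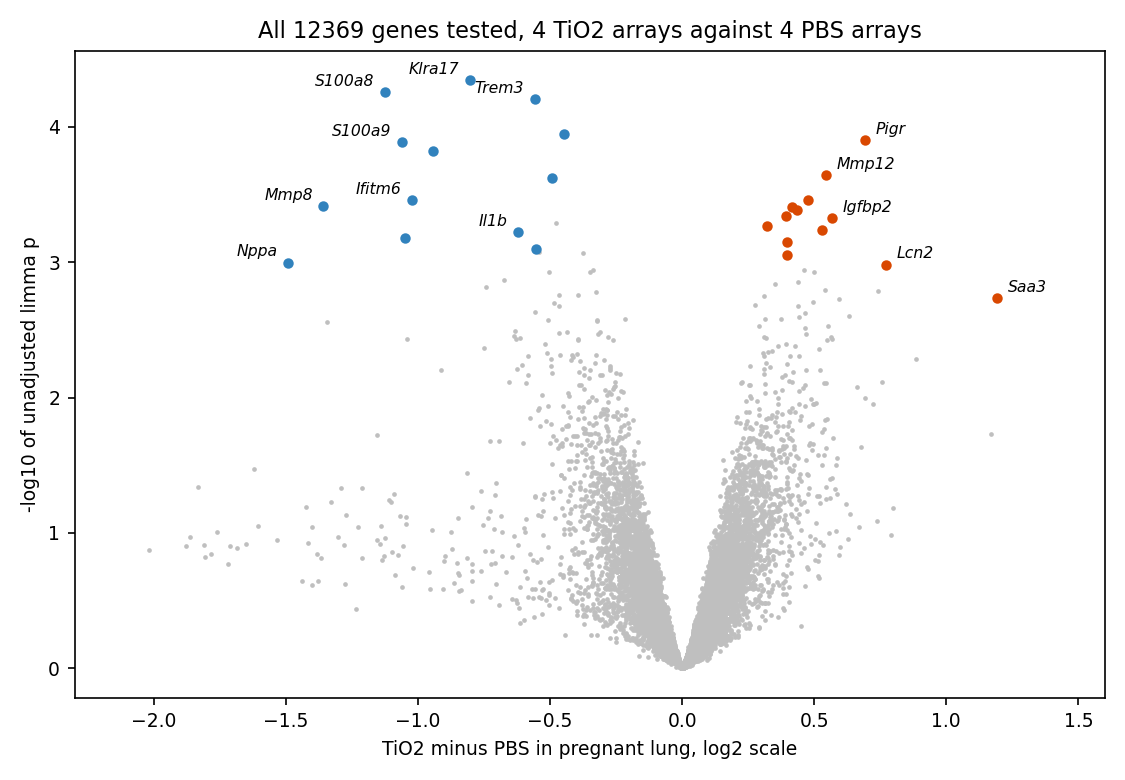
Each point is 1 of the 12369 genes: the horizontal axis is TiO2 minus PBS in pregnant lung on the log2 scale, and the vertical axis is -log10 of the unadjusted limma p. Coloured points are the 12 genes of smallest p per direction with groups that do not overlap, with Saa3 and Nppa added; no gene reached an adjusted p of 0.05.

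Matrix genes had no common direction. Mfap5, a microfibril glycoprotein, was at 8.63, 8.64, 8.71 and 8.83 after PBS and at 9.25, 9.21, 9.08 and 8.92 after TiO2, apart by 0.42 ± 0.09 (adjusted p = 0.362, limma). Tnxb, tenascin X, was apart too, at 0.34 ± 0.12. Of 23 measured elastic fibre and glycoprotein genes 16 were higher and 7 lower, with a median of 0.14. Of the 23, 2 were apart, beside 2.05% of all genes on the higher side. The 18 collagen chains had a median of -0.02, with 8 higher and 10 lower. The 17 measured matrix proteases and inhibitors had 10 higher and 7 lower, with a median of 0.01. Of the 17, 2 were apart on the higher and 2 on the lower side, beside 2.05% and 2.17% of all genes. Among the 17, Mmp14, a membrane-bound collagenase, differed by 0.44 ± 0.15 and was apart. Timp1, a general inhibitor, and Mmp3, stromelysin, differed by 0.47 ± 0.14 and 0.44 ± 0.14 with overlap. Sned1, a matrix glycoprotein, lay lower at -0.55 ± 0.13, with 7.91 to 8.21 after PBS and 7.32 to 7.81 after TiO2.

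All 32 measured cell cycle genes of 38 listed lay higher after TiO2, with a median of 0.32, and 10 of them were apart on all arrays, beside 2.05% of all genes. An unadjusted p under 0.05 was reached by 6 of the 32, beside 3.29% of all genes on the higher side. The list mean was 7.01, 7.04, 7.11 and 7.30 after PBS and 7.47, 7.54, 7.32 and 7.44 after TiO2, with PBS replicate 4 nearly level with TiO2 replicate 3. Birc5, survivin, which acts in chromosome segregation, was at 6.26, 6.54, 6.31 and 6.66 after PBS and at 7.28, 7.18, 7.13 and 7.06 after TiO2. Its difference was 0.72 ± 0.25 (adjusted p = 0.723, limma). Cdk1, the kinase that starts mitosis, differed by 0.68 ± 0.27, Cdc20, an activator of the anaphase ligase, by 0.59 ± 0.24 and Cdc45, of the replication helicase, by 0.47 ± 0.15. All 4 of these genes were apart.

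Non-pregnant PBS replicates 3 and 4 were high in thymocyte genes, with list means of 8.66 and 8.85, beside 6.41 to 6.99 on the 8 pregnant arrays. These 2 arrays were also high in cell cycle genes, with list means of 7.90 and 8.06. They enter the spread that limma pools, not the difference between the pregnant groups. In the pregnant arrays the T cell and thymocyte lists had medians of 0.03 and 0.01, with 9 of 18 and 3 of 6 genes higher. The part of lymphoid tissue in the cell cycle values was not tested.

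Epithelial genes were mostly level. The lung markers were high on all 8 arrays: Sftpc, surfactant protein C, at 13.15 to 13.36 and Scgb1a1, the club cell secretoglobin, at 13.44 to 13.55. The 16 measured alveolar type 2 genes had a median of -0.03. Of 14 alveolar type 1 genes 12 were higher, with a median of 0.08, and 1 was apart, beside 2.05% of all genes on the higher side. That gene, Igfbp2, which binds insulin-like growth factors, was at 10.32, 10.49, 10.90 and 10.31 after PBS and at 11.17, 11.23, 10.95 and 10.93 after TiO2, a difference of 0.57 ± 0.13 (adjusted p = 0.364, limma).

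Of 26 measured motile cilium genes 0 were apart, beside 2.05% of all genes on the higher and 2.17% on the lower side. The median of the 26 was 0.13, with 21 higher. Their list mean was 7.71, 7.57, 7.39 and 7.42 on the TiO2 arrays, of which only replicate 1 was above the PBS range of 7.32 to 7.59. Foxj1, the master regulator of motile cilia, was at 8.45, 7.86, 8.72 and 8.89 after PBS and at 9.06, 9.03, 8.94 and 8.81 after TiO2. It overlapped, with a difference of 0.48 ± 0.18.

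Genes of toxic and oxidant stress showed no common shift. The 21 measured metal and oxidant defence genes had a median of 0.01, with 12 higher and 9 lower. Of them 0 were apart, beside 2.05% of all genes on the higher and 2.17% on the lower side. Hmox1, haem oxygenase 1, differed by -0.06 ± 0.17, and the metallothioneins Mt1 and Mt2 by -0.00 ± 0.15 and 0.12 ± 0.23. Cyp1a1, the aryl hydrocarbon receptor's best known target, stood alone in its list of 7 measured genes. It was at 8.55, 8.32, 8.81 and 9.19 after PBS and at 9.80, 9.65, 8.98 and 9.40 after TiO2, overlapping at 1 array on each side, with a difference of 0.74 ± 0.19 (adjusted p = 0.507, limma). The rest of that list had differences down to -0.50.

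**Figure D3:**
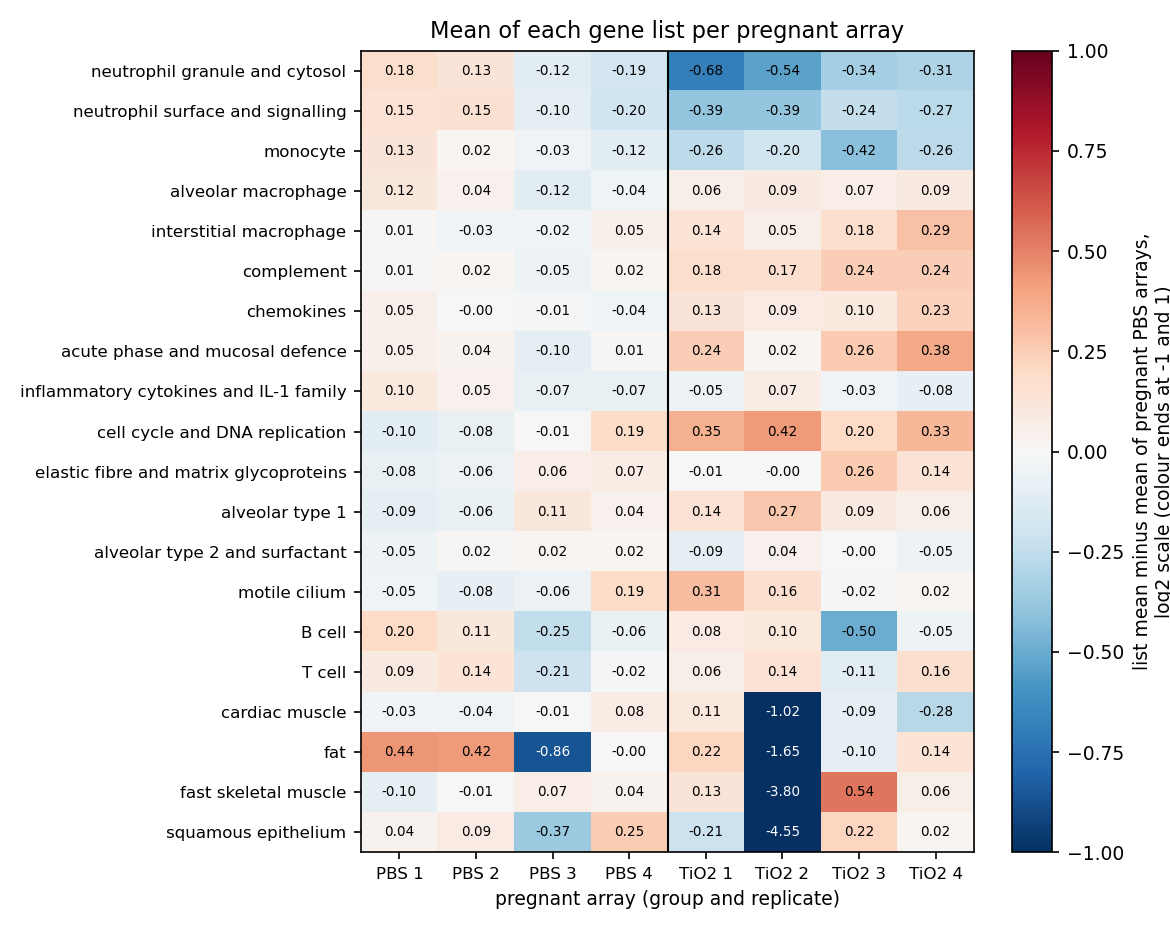
Mean of each gene list on each pregnant array minus the mean of the 4 PBS arrays, on the log2 scale, with colours ending at -1 and 1 and the value printed in each field. The neutrophil and monocyte lists were below 0 on all 4 TiO2 arrays, the complement, chemokine and cell cycle lists above 0, and TiO2 replicate 2 was far below all other arrays in the squamous and fast skeletal muscle lists.

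Among the remaining genes of smallest p, Procr, the endothelial protein C receptor of the anticoagulant pathway, was at 7.65, 7.47, 7.53 and 7.69 after PBS and at 7.90, 7.94, 7.78 and 8.00 after TiO2, a difference of 0.32 ± 0.07. Tfpi2, an inhibitor of tissue factor, was apart as well, at 5.55 to 6.10 and 6.14 to 6.36. Of 14 measured coagulation genes 2 were apart on the higher and 1 on the lower side, beside 2.05% and 2.17% of all genes. Pcdhb7 and Pcdhb9, protocadherins of a cluster of similar adhesion genes that a probe set may not tell apart, differed by 0.53 ± 0.12 and 0.39 ± 0.09. Szrd1, Dipk1b and Tor2a differed by 0.47 ± 0.10, 0.43 ± 0.10 and 0.40 ± 0.10. On the lower side, Armcx4 and 4931429L15Rik differed by -0.45 ± 0.09 and -1.05 ± 0.25. The 24 genes had 4 other kept probe sets, all with the same sign, although those of Szrd1 and Tor2a gave only 0.08 and 0.06.

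TiO2 replicate 2 stood apart from the other arrays in tissue content. Its Krt13, a keratin of squamous lining, was at 5.21 against 12.34 to 12.83 on the other TiO2 arrays and 12.38 to 12.64 on the PBS arrays. Acta1, skeletal muscle actin, was at 6.56 there and at 12.23 to 12.51 on the other 7 arrays, and Glycam1, of lymph node venules, was at 4.15 beside at least 9.45. The squamous and muscle signals were thus high on 7 of the 8 lung arrays, and whole-lung values include such tissue. That array correlated with the others of its group at 0.939 to 0.948, while the other pairs within the 2 pregnant groups reached at least 0.980.

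The lower medians of the tissue lists rested on this array. Squamous epithelium genes had a median of -0.96 with 17 of 17 lower, fast skeletal muscle genes -0.67, fat genes -0.29 and cardiac genes -0.24. Without TiO2 replicate 2 these medians were 0.01, 0.24, 0.11 and 0.01. Of the 60 genes that lay lower by over 1 on the log2 scale, 8 were apart on all arrays, beside 2.17% of all genes on the lower side. The 60 were picked by size on the same arrays, so that share is not a like background. The 8 were S100a8, S100a9, Mmp8, Ifitm6, Nppa, 4931429L15Rik, Lce1f and Lce1i, the last 2 being squamous envelope genes. Leaving that array out, S100a8 differed by -1.14, Mmp8 by -1.27, Saa3 by 1.22, Lcn2 by 0.75 and Pigr by 0.71, and the neutrophil granule, complement and cell cycle medians were -0.29, 0.26 and 0.29.

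**Figure D4:**
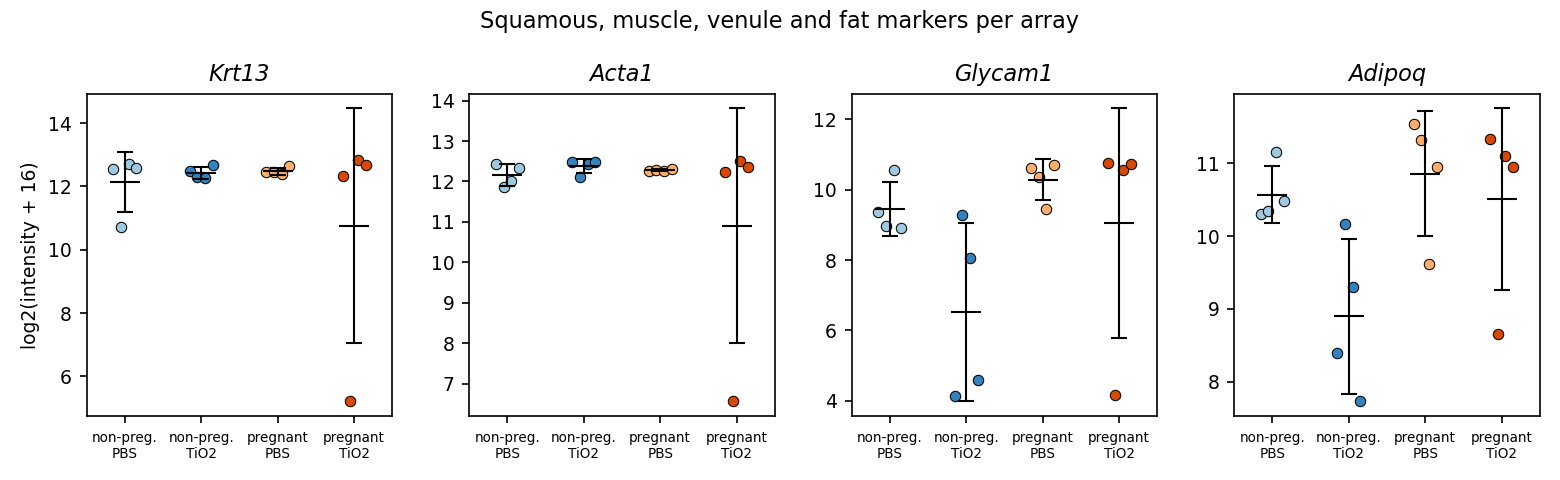
Log2(intensity + 16) of Krt13 (squamous epithelium), Acta1 (skeletal muscle), Glycam1 (lymph node venule) and Adipoq (fat) on each array by group, with mean and SD bars of 4 arrays. In pregnant TiO2 lung 1 array, replicate 2, lay far below the other 3, with Krt13 at 5.21 and Acta1 at 6.56.

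Nppa, the atrial natriuretic peptide, made in atrial muscle including that around the pulmonary veins, was at 9.40, 9.47, 9.66 and 9.81 after PBS and at 8.69, 7.24, 7.97 and 8.48 after TiO2. The groups were apart by -1.49 ± 0.37 (adjusted p = 0.447, limma), and by -1.21 without TiO2 replicate 2. Single examples of other atrial and cardiac genes differed far less: Myl7, the atrial light chain, by -0.15, Myh6, the atrial myosin, by -0.07, and Actc1, cardiac actin, by -0.05. These examples lay nearer 0 than the cardiac list as a whole. Of its 15 measured genes, Nppa included, 14 lay lower and 1 higher, with a median of -0.24. Without TiO2 replicate 2 that median was 0.01. In non-pregnant mice Nppa differed by -0.97 ± 0.37.

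The same comparison in non-pregnant mice gave these genes' own values as follows. TiO2 minus PBS there was -0.30 ± 0.21 for S100a8, -0.41 ± 0.21 for S100a9, -0.39 ± 0.14 for Il1b, 0.59 ± 0.32 for Saa3, 0.66 ± 0.19 for Lcn2 and 0.43 ± 0.14 for Pigr, each with the sign it had in pregnant mice and a smaller size. The lists differed in this. In non-pregnant mice the neutrophil granule list had 11 of 14 genes lower (median -0.20) and the neutrophil surface list 10 of 18 (median -0.04). The monocyte list had 10 of 12 lower there (median -0.32), beside 10 of 12 in pregnant mice (median -0.23). The complement list had 8 of 14 lower in non-pregnant mice (median -0.05), opposite in sign to pregnant mice. No list was tested between the states. The test of the difference between the 2 states, the interaction, called 0 of 12369 genes (0%), with a lowest adjusted p of 0.232 and 1352 genes (10.9%) at an unadjusted p under 0.05. For S100a8 the interaction was -0.83 ± 0.29 (adjusted p = 0.38, limma), for Saa3 0.60 ± 0.45 (adjusted p = 0.639) and for Lcn2 0.11 ± 0.27 (adjusted p = 0.9).

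Other genes lay on opposite sides in the 2 states. C1qa differed by 0.40 in pregnant and by -0.17 ± 0.09 in non-pregnant mice, Igfbp2 by 0.57 and -0.23 ± 0.13, and Cyp1a1 by 0.74 and -0.43 ± 0.19. Their interactions were 0.57 ± 0.13, 0.80 ± 0.18 and 1.17 ± 0.28, all with an adjusted p of 0.232 by limma. Cell cycle genes were 32 of 32 higher in pregnant and 31 of 32 lower in non-pregnant mice, with medians of 0.32 and -0.33. That non-pregnant median rests on a PBS group with the 2 thymocyte-rich arrays described above, whose part in it was not tested. Over all genes, 54.5% lay lower in non-pregnant mice, and 0 were called there by limma (0%), with 1223 (9.89%) at an unadjusted p under 0.05. Non-pregnant PBS replicate 2 has labels that conflict on pregnancy.

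**Figure D5:**
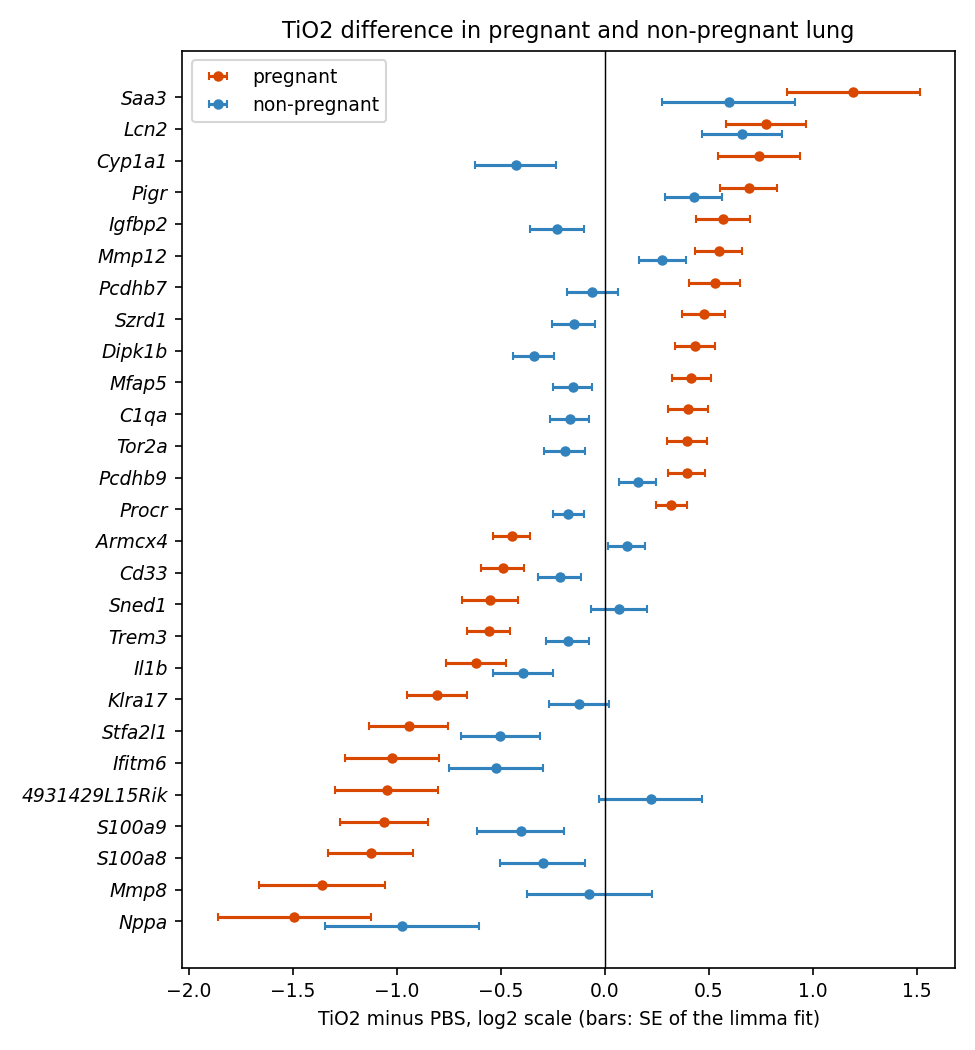
TiO2 minus PBS on the log2 scale, with SE bars of the limma fit, for 27 genes in pregnant (orange) and non-pregnant (blue) lung, ordered by the pregnant difference. Genes at the top lay higher and genes at the bottom lower in pregnant lung, from 1.19 for Saa3 to -1.49 for Nppa, and no interaction passed the adjusted threshold.

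Technical measures of the 8 arrays overlapped between the groups. The trimmed mean of the deposited signals ran from 172 to 263, the Gapdh 3′ to 5′ ratio from 0.82 to 1.06 and the Actb ratio from 1.29 to 1.51. The 18S rRNA signal of the deposited values, though, divided each group by replicate: it was 98.2, 156, 45.4 and 44.0 after PBS and 164, 97.8, 46.7 and 71.1 after TiO2. PBS replicates 1 and 2, higher in 18S, were also those higher in S100a8, S100a9 and Mmp8. TiO2 replicates 1 and 2, also higher in 18S, were instead those lower in Mmp8. Their neutrophil granule list means were 8.88 and 9.03, beside 9.22 and 9.26 on TiO2 replicates 3 and 4. The part of RNA quality in these values was not tested. Because 4 arrays stood against 4, the number of arrays limits the precision. The count of genes at an unadjusted p under 0.05 was 795 in all and went to 420 without PBS replicate 2 and to 511 without TiO2 replicate 1.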

How the data were processed

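Whole-lung RNA was measured on 1-colour Affymetrix mouse arrays. The deposited table holds linear intensity values, 1 per probe set and array; the tools named in the submitters' processing notes are RMA, MAS5 and GCOS, with version and order not given in the sources used here. From these values 64 control probe sets were left out, arrays were quantile-normalised, log2(value + 16) was taken, and probe sets above their array's median on at least 4 of 16 arrays were kept (23995). Names came from the platform annotation, updated by Entrez identifier (34754 matched of 34958 with 1 symbol; 932 had several and 9211 none). The brightest of 21248 named probe sets stood for each of 12369 genes. Group means over 16 arrays were fitted with limma 3.58.1 in R 4.3.3 (12 residual degrees of freedom), with Benjamini-Hochberg adjustment, and the procedure was tested on simulated data. Adding 16 understates differences of weak signals.

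The genes described were the 12 of smallest p per direction among those whose groups do not overlap, preset inflammation and tissue genes, the 3 of smallest p of each of 45 lists (851 genes, 665 tested) of which examples are printed, and single examples picked after their values were seen. The members and lists were chosen with earlier results of these data known, so list counts are descriptions. Genes correlated with S100a8 are not given, since its 2 groups do not overlap. Non-pregnant PBS replicate 2 has conflicting labels and was kept with its gestation label; replicate numbers only name samples. Alternatives covered scaling, filter, pseudocount, arrays fitted, variance model, probe sets per gene and each array left out.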

Additional observations from a re-analysis of the deposited data

Results flagged for a closer look

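In 186 groups of 4 arrays examined (genes described and list means, pregnant groups only), 14 held 1 array far from the other 3. By chance a group passes that rule about 1 time in 20. The genes and lists share members and were chosen with earlier results known, so the count of 14 cannot be set against that rate. TiO2 replicate 2 was the far array in 9 of the 14. It was low for Krt13 (5.21), Acta1 (6.56), Glycam1 (4.15) and Adipoq (8.65), and for the means of the squamous epithelium (4.99), fast skeletal muscle (5.89), fat (8.15), lymph node venule (6.19) and aryl hydrocarbon receptor (8.65) lists. In the PBS group, replicate 3 was high for Lcn2 (10.95) and low for the complement list (8.57). PBS replicate 4 was low for Saa3 (7.53) and high for the motile cilium list (7.59), and PBS replicate 1 was low for the alveolar type 2 list (11.59).

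Among the genes described, Dipk1b and Procr had all TiO2 arrays above all PBS arrays in pregnant mice and all below in non-pregnant mice. Both had been chosen from genes whose pregnant groups do not overlap. How many of all genes lay on opposite sides in this way was not counted. The interactions of Dipk1b and Procr were 0.78 ± 0.14 and 0.50 ± 0.10, each with an adjusted p of 0.232 by limma, so neither difference between the states passed the test.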

How the results depend on the processing

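Over 29 alternatives, the differences of 39 genes in pregnant lung, among them the 24 of smallest p, Saa3, Nppa and Cyp1a1, all kept their direction. Of 1131 values 1127 stayed on the same side of the adjusted threshold, and 4 passed it: Trem3 with array weights (-0.61) and without non-pregnant PBS replicate 3 (-0.56), Klra17 without pregnant TiO2 replicate 3 (-0.95), and Nppa in values as deposited (-1.59). So 1 gene was called with array weights, 1 in values as deposited, and 0 to 1 with each array left out in turn. Tested over all 23995 kept probe sets, an alternative chosen after seeing the data, 0 were called. The interaction called 1 gene with no filter (Atp4a), 2 without the array of conflicting labels (Nfatc3 and Plekha8), and 4 without 3 arrays of unlike tissue (Lysmd1, Sfrp4, Tab3 and Telo2); with each array left out it called 0 to 2. Genes at an unadjusted p under 0.05 numbered 245 in values as deposited, and 420 to 1012 with each array left out. Genes apart on the higher side numbered 25 in values as deposited and 530 without the 3 arrays, and 253 to 604 with each array left out. On the lower side they numbered 67, 759 and 269 to 759, and 153 with non-pregnant PBS replicate 2 moved to the pregnant PBS group. Fewer arrays make groups that do not overlap easier to reach. In values as deposited the median of all genes was -0.08, with 3467 genes higher and 8902 lower, so those directions are relative to that shift; other causes were not tested. List medians that lay near 0 changed sign under some settings, and those of the squamous, muscle, cardiac, fat and venule lists did so without pregnant TiO2 replicate 2. No paired analysis was possible because the labels give no replicate numbers.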

Other observations

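The 4 TiO2 arrays were not alike in genes of stress hormone and early response. Counting genes above their pregnant PBS mean, the glucocorticoid response list of 21 genes had 5 and 2 on TiO2 replicates 1 and 2 but 15 and 17 on replicates 3 and 4, while its median difference was -0.01. Immediate early genes had 4, 13, 20 and 19 of 26 above, and heat shock genes 9, 2, 12 and 9 of 18. Platelet and megakaryocyte genes had 2, 1, 11 and 8 of 13 above, and motile cilium genes 24, 22, 11 and 14 of 26. The 18S rRNA signal of these arrays was 164 and 97.8 on replicates 1 and 2 and 46.7 and 71.1 on replicates 3 and 4, and the Actb 3′ to 5′ ratio 1.47 and 1.40 against 1.33 and 1.33. The pregnant PBS arrays were split alike, with 18S at 98.2 and 156 against 45.4 and 44.0. Their glucocorticoid list means were 10.35, 10.29, 10.26 and 10.20, beside 10.03, 10.02, 10.58 and 10.57 on the TiO2 arrays. The part of RNA quality in these counts and means was not tested.

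The feature of smallest p over all kept probe sets has no single gene name. It was at 7.08 to 7.69 on the pregnant PBS arrays and at 8.14 to 8.39 on the pregnant TiO2 arrays, a difference of 0.81 ± 0.12 with an adjusted p of 0.169 by limma over 23995 probe sets. Over the 2747 kept probe sets without a single symbol alone, it was the 1 called, with an adjusted p of 0.0300. On the 8 non-pregnant arrays it was at 7.87 to 8.27.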
